A study of Homo sapiens with 18 samples.

Results

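The transcriptome of EBC-1 cells carrying an shRNA against SYK was compared with that of EBC-1 cells carrying a negative control. EBC-1 is listed by the study as a squamous cell lung cancer line and carries extra copies of MET. Of the 18 RNA-seq libraries of the series, 6 were from EBC-1, 3 from the negative control (nc) and 3 from the knockdown (shSYK). The remaining 12 libraries came from PC-9 and HCC827, lung cancer lines that carry EGFR mutations, and served only to set the EBC-1 response beside theirs. Both EBC-1 groups carried the MET amplification and a lentiviral construct, and they differed in what the construct targets. The study's methods name 1 shRNA against SYK, so an effect of SYK loss and an effect of that shRNA on other transcripts cannot be told apart. The labels number the 3 libraries of a group and do not say that they came from separate cultures, so the p-values measure the spread between these libraries, which may be technical. Genes with a mean of at least 1 FPKM (reads scaled by gene length and library size, as the authors computed them) over the 6 libraries were kept, which left 12430 of 58302 genes. A gene with a mean under 1 FPKM in 1 group passed only through the other group, so the filter fixed the direction of its change. Fold changes are shSYK minus nc on the log2(FPKM + 1) scale, and a gene was called changed at a limma Benjamini-Hochberg adjusted p below 0.05.

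SYK is a cytoplasmic tyrosine kinase best known for signalling from immune receptors in blood cells, and it is also made in many epithelial cells. MET is the receptor of hepatocyte growth factor, and cells that carry many copies of its gene can depend on its signal to grow. Among the programmes that follow, the unfolded protein response is the set of genes that a cell turns on when proteins fold poorly in the endoplasmic reticulum. The transcription factors ATF6 and XBP1 act in it on chaperone genes, and the kinase PERK acts through the transcription factor ATF4, which other stresses such as amino acid shortage also raise.

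SYK (chr9:90801787-90898549, GRCh38) was measured at 15.15, 13.05 and 14.45 FPKM in the nc libraries and at 7.63, 7.25 and 7.41 FPKM in the shSYK libraries. The groups did not overlap, and the knockdown left 52.3% of the control mean (log2 fold change -0.85 ± 0.07 SE, adjusted p = 0.000271). An exact two-sided permutation test over the 6 libraries gave p = 0.1, which is the smallest value that 3 against 3 libraries allow. Reads on genes ranged from 11308942 to 15729103 per EBC-1 library. The epithelial markers EPCAM, CDH1, KRT8 and KRT18 lay between 58.9 and 312.5 FPKM in all 6 libraries. The squamous markers KRT5, KRT6A and KRT14 had no read in any library, TP63, DSG3 and TRIM29 stayed at or below 0.132 FPKM, and SOX2 was between 5.38 and 10.5 FPKM. Of the lung adenocarcinoma markers, NKX2-1, SFTPB and SCGB1A1 stayed at or below 0.272 FPKM, SFTPC had no read and NAPSA stayed at or below 0.90 FPKM. Among markers of leukocytes, fibroblasts and endothelium, COL1A2, DCN, LUM and CDH5 had no read, and PTPRC, CD3E, LYZ and VWF were at or below 0.0517 FPKM. CD14 reached 0.585 FPKM, PECAM1 reached 0.215 FPKM, and COL1A1 was between 1.69 and 2.48 FPKM. None of the 15 listed immune markers passed the FPKM filter.

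The 6 libraries differed along the GC content of the transcripts, and this difference ran with the groups. In the 1237 genes of lowest GC content (median 38.2%), the median deviation from the mean of the 6 libraries was -0.28, -0.04 and -0.29 on the log2 scale in the nc libraries and 0.16, 0.17 and 0.28 in the shSYK libraries. In the 1237 genes of highest GC content (median 64.4%) it was 0.18, 0.01 and 0.21 in the nc libraries and -0.05, -0.04 and -0.30 in the shSYK libraries. The nc replicate 2 was nearly flat and lay between the groups, and shSYK replicate 3 was the steepest of its group. Among the low-GC genes 59.8% were called higher and 2.10% lower, and among the high-GC genes 5.90% were called higher and 39.0% lower. The trend along gene length was weaker, with a median log2 fold change of -0.08 in the second of 10 length bins and 0.13 in the longest genes. Across genes, the Spearman correlation of the fold change was -0.55 with GC content (n = 12366 genes) and 0.13 with length (n = 12430 genes). Genes are not independent replicates, and the trend and the knockdown cannot be told apart by this design. Each comparison was therefore made on the values as deposited and again after the trends along length and GC content had been removed from every library.

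**Figure D1:**
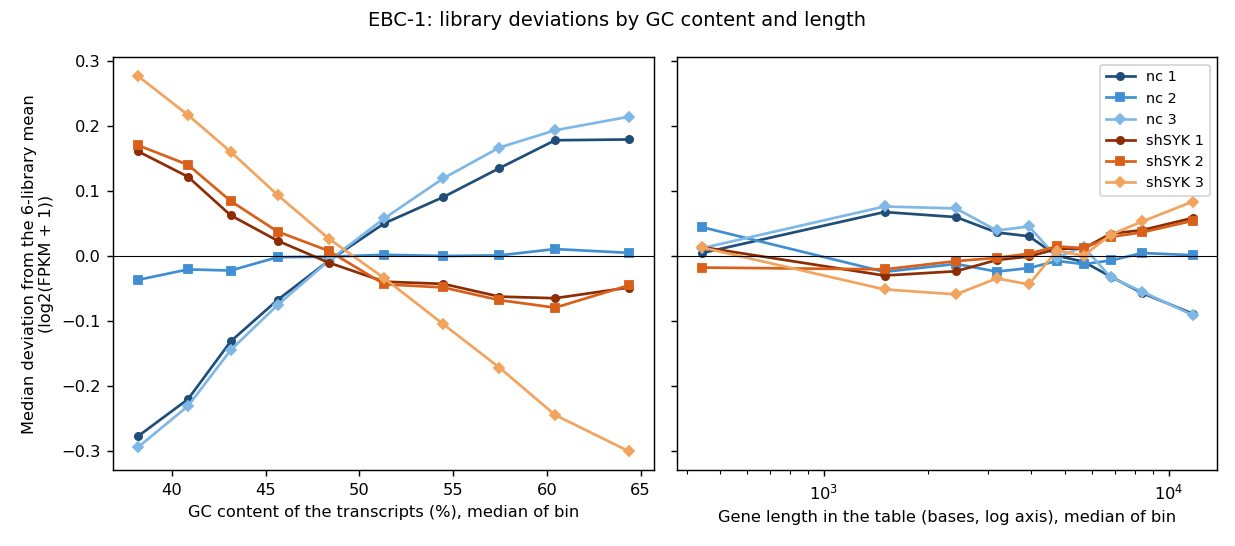
Median deviation of each EBC-1 library from the mean of the 6 libraries (log2(FPKM + 1), y axis) in 10 bins of genes by GC content (left, %) and by gene length (right, bases, log axis), with 1 line per library. In the bin of lowest GC content the nc libraries lie between -0.29 and -0.04 and the shSYK libraries between 0.16 and 0.28, and the order is turned in the bins of high GC content.

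Of the 12430 genes, 2876 (23.1%) were called higher and 2686 (21.6%) lower in shSYK than in nc cells. With the trends removed, 2657 of 12366 genes (21.5%) were called higher and 2692 (21.8%) lower. In both, 1651 genes were higher and 1965 were lower, and 4 genes called higher on the deposited values were called lower once the trends were removed. The summed FPKM was between 267243 and 280477 in the nc libraries and between 247177 and 253541 in the shSYK libraries. Scaling every library to the same sum moved the median of all genes up by 0.11 on the log2 scale and turned the split of 2876 higher and 2686 lower into 4019 and 1901. Among the genes named in what follows, the falls of ATF4, CDH1, SOX2, EDEM1, CDK4, BAX, EIF1, TGFB1, MUC20, PCDH1, SEC24D, SEC23B, TES and AC002066.1 did not pass with equal sums (adjusted p between 0.0501 and 0.169). A limma-voom fit on reads recovered from the FPKM gave 3876 higher and 2267 lower. The medians of gene lists are therefore given relative to the median of all genes tested and are called relative medians here. Calls of at least 2-fold were fewer among the rises (124 genes, 0.998%) than among the falls (285 genes, 2.29%).

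Lists of genes that act together and families of genes with related names were counted against these shares. Of the 87 with a gene tested, 43 had a relative median of at least 0.15 in size, 29 of them below the median of all genes and 14 above it. With the trends removed, 19 of the 43 kept a relative median of at least 0.15 with the same sign, 21 became smaller and 3 changed sign. Of those that kept it and had at least 8 genes tested, the unfolded protein response, the ATF4 response and the mitochondrially encoded genes lay lowest and serpins, mitosis genes, the squamous programme and S100 proteins highest. The squamous and S100 lists share S100A8 and S100A9 and are not independent. Lists with fewer genes, such as mucins with 2, also reached such values. Some serpins and squamous genes passed the FPKM filter only through the shSYK libraries, so the medians of these 2 lists are no evidence of a shift.

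**Figure D2:**
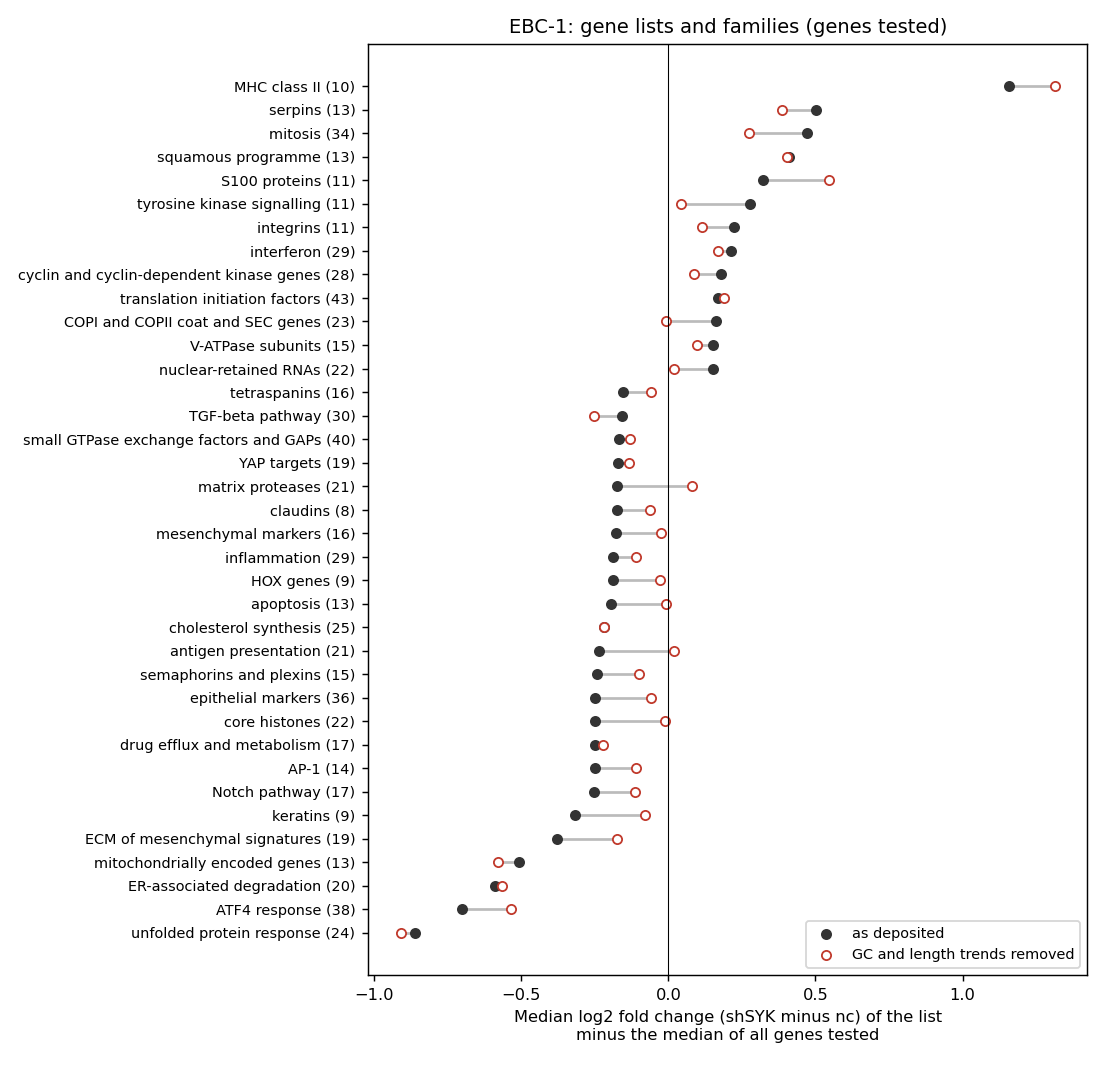
Median log2 fold change (shSYK minus nc) of each list or family with at least 8 genes tested and a relative median of at least 0.15 in size, minus the median of all genes tested, with the number of genes tested in brackets. Black points are the values as deposited and open red points the values with GC and length trends removed. The unfolded protein response lies at -0.86 and -0.91, while for epithelial markers (-0.25 and -0.06) and antigen presentation (-0.24 and 0.02) little or nothing is left. The lists MHC class II and ER-associated degradation were written after their values were seen.

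Genes of the unfolded protein response were lower in shSYK cells. Of 25 listed genes, 24 were tested, 17 (70.8%) fell and 2 rose, with a relative median of -0.86. With the trends removed, 21 fell and 2 rose, with a relative median of -0.91. HSPA5 (chr9:125234853-125241330), the main chaperone of the endoplasmic reticulum, was at 1072, 1602 and 1004 FPKM in nc cells and at 198, 204 and 219 FPKM in shSYK cells. The nc libraries lay far above all shSYK libraries, with replicate 2 the highest, and the mean was 5.92-fold lower (log2 fold change -2.53 ± 0.17 SE, adjusted p = 8.47e-05). HERPUD1, a membrane protein that helps to clear misfolded proteins, was at 128, 150 and 107 FPKM against 20.02, 21.5 and 22.7 FPKM, a 5.99-fold difference without overlap (adjusted p = 3.51e-05). SDF2L1, a partner of the chaperone machinery, was at 207, 225 and 204 FPKM against 35.2, 39.8 and 36.2 FPKM (log2 fold change -2.48 ± 0.07 SE, adjusted p = 6.39e-06). PDIA4, a disulphide isomerase, was at 400, 511 and 399 FPKM against 129, 122 and 129 FPKM (log2 fold change -1.77 ± 0.10 SE, adjusted p = 6.71e-05).

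The remaining chaperones and sensors graded down from there. DNAJB9, MANF, CRELD2, HYOU1, SYVN1, CALR, DNAJB11, XBP1, PDIA6, PDIA3, EDEM1 and ERN1 fell with log2 fold changes between -1.74 and -0.48. The groups did not overlap in XBP1, which was at 37.4, 37.8 and 38.2 FPKM in nc cells and at 19.4, 20.6 and 18.7 FPKM in shSYK cells (log2 fold change -0.92 ± 0.06 SE, adjusted p = 0.000106). These levels sum the spliced and unspliced forms of XBP1, so they do not measure its activation. The kinase PERK (EIF2AK3, log2 fold change -0.14, adjusted p = 0.306) and ATF6 (0.24, adjusted p = 0.073) did not pass the test, and both overlapped between the groups. Once the trends were removed, EIF2AK3 passed at -0.43 (adjusted p = 0.00502) and ATF6 did not (adjusted p = 0.985). HSP90B1 was at 296, 534 and 280 FPKM in nc cells and 220, 224 and 237 FPKM in shSYK cells, and missed the threshold (adjusted p = 0.0506) with nc replicate 2 far above the others of its group. It passed with the trends removed (-0.91, adjusted p = 0.00648). The 2 members that rose were ERO1A (0.61), an oxidase that is also a hypoxia gene, and SEC61B (0.33), a subunit of the translocation channel. A list of 20 genes of endoplasmic reticulum degradation and stress sensing, written after values had been seen, had 12 falls and 3 rises. In it, DERL3, a component of the degradation channel, was at 17.0, 21.3 and 12.9 FPKM in nc cells and at 1.5, 1.13 and 0.755 FPKM in shSYK cells. BHLHA15, a transcription factor of secretory cells, was at 15.3, 25.4 and 19.97 FPKM against 1.995, 2.04 and 1.57 FPKM. Both had separate groups (adjusted p = 7.19e-05 and 6.83e-05). DERL3 overlaps SMARCB1 on the opposite strand, and whether reads were counted by strand is not stated.

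**Figure D3:**
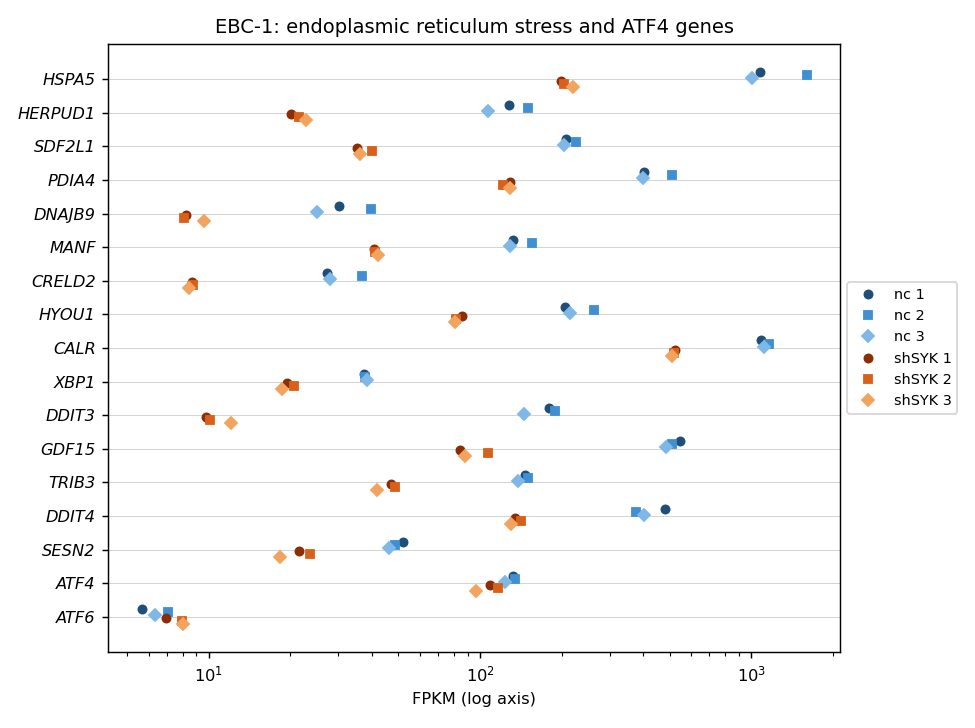
FPKM (log axis) of 17 genes of the unfolded protein response and the ATF4 response in each EBC-1 library, with blue symbols for nc and orange symbols for shSYK replicates 1 to 3. HSPA5 lies at 1004 to 1602 in nc and at 198 to 219 in shSYK libraries, DDIT3 at 146 to 189 and 9.77 to 12.1, while the groups overlap in ATF6.

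Some chaperone genes that fell carry a known stress element in the promoter, and these are shown so that they can be read beside the values. Of the genes tested, 8927 were matched by symbol and chromosome to a RefSeq promoter (GRCh38.p14, 250 bases before to 50 after the start). The ER stress response element, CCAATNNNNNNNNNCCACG on either strand, is bound by NF-Y with ATF6 or XBP1. It was searched for after the values had been seen. It was found in 12 of the 8927 promoters (0.134%, against 0.0769% of all 35116 promoters of the table). Of these 12 genes, 6 were called lower (HSPA5, CRELD2, FICD, CALR, XBP1 and ALG12) and 1 higher (EIF2A, which did not pass with the trends removed). The median log2 fold change of the 12 was -0.68 and with the trends removed -0.71. The element was in 2.235% of the promoters of the 179 matched genes that fell at least 2-fold, and none of the 10 largest falls by the naming rule is among the 12. The 4 with the largest falls are printed with the element in capitals, 5′ to 3′ on the strand of the gene, from chr9:125241294-125241593 (minus strand), chr22:49918384-49918683 (plus), chr12:108515027-108515326 (plus) and chr19:12938359-12938658 (plus).
HSPA5: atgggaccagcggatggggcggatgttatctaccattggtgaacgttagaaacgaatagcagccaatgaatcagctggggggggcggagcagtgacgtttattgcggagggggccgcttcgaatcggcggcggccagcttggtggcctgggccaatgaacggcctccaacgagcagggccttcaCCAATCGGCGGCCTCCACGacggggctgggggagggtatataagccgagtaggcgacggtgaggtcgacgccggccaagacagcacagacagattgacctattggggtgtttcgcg
CRELD2: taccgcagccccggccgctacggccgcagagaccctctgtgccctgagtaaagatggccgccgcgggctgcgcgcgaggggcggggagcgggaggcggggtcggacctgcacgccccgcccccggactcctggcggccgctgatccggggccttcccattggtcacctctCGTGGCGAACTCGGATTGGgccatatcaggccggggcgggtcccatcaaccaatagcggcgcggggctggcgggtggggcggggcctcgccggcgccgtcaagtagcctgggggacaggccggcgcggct
FICD: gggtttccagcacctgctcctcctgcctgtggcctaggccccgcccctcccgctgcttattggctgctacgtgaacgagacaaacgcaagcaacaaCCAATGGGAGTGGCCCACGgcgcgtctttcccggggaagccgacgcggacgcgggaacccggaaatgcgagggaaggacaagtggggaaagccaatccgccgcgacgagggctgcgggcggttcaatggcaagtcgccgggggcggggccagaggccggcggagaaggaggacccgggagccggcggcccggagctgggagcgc
CALR: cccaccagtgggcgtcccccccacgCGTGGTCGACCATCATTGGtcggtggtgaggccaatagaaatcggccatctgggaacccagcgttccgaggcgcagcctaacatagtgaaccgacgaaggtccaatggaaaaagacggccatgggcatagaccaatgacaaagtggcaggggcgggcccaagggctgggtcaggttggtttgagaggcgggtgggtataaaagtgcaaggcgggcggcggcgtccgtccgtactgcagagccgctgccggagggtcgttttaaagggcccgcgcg

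The element begins 66 bases before the start in HSPA5, 80 in CRELD2, 154 in FICD and 225 in CALR, and in CRELD2 and CALR it lies on the other strand. CRELD2, a secreted stress protein, was at 27.2, 36.7 and 27.9 FPKM in nc cells and at 8.70, 8.76 and 8.44 FPKM in shSYK cells. FICD, an enzyme that modifies HSPA5, was at 11.1, 13.2 and 10.1 FPKM against 3.46, 3.49 and 3.65 FPKM. CALR, a lectin chaperone, was at 1089, 1162 and 1110 FPKM against 521, 520 and 511 FPKM. In all 3 genes the groups were apart, with log2 fold changes of -1.70, -1.45 and -1.11. A related form, ERSE-II (ATTGG and CCACG with 1 base between them, on either strand), also searched for after the fact, was in 11 promoters, of which 5 genes were called lower (HERPUD1, SDF2L1, HYOU1, NUCB1 and RAD9A) and 2 higher (PLS3 and ZNF143, the latter not with the trends removed). It is shown for HERPUD1, the most reduced of them, at chr16:56931892-56932191 (plus strand), where it begins 117 bases before the start.
HERPUD1: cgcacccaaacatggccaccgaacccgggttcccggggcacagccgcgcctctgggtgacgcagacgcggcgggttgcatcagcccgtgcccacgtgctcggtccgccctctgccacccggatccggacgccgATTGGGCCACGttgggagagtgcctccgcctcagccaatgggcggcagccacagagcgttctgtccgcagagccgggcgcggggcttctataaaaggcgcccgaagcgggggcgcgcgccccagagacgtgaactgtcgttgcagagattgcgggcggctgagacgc

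The ATF4 response fell as broadly. Of 43 listed genes 38 were tested, 28 (73.7%) fell and 2 rose, with a relative median of -0.70. After trend removal 29 fell and 2 rose, with a relative median of -0.53. DDIT3 (CHOP, chr12:57516588-57520517), a transcription factor of prolonged stress, was at 179, 189 and 146 FPKM in nc cells and at 9.77, 10.1 and 12.1 FPKM in shSYK cells. This was the largest fall among called genes with a mean of at least 5 FPKM and no overlap, 16.1-fold on the means (log2 fold change -3.88 ± 0.12 SE, adjusted p = 6.39e-06). MIR616 lies within DDIT3 on the same strand, and the reads placed on it, as few as 1 in a library, cannot be told apart from those of DDIT3. GDF15, a stress hormone, was at 543, 511 and 485 FPKM against 84.5, 107 and 87.7 FPKM (log2 fold change -2.46 ± 0.10 SE, adjusted p = 2.19e-05). TRIB3, a pseudokinase that feeds back on ATF4, was at 146, 150 and 137 FPKM against 47.0, 48.6 and 41.7 FPKM. DDIT4, an inhibitor of mTORC1, was at 480, 376 and 403 FPKM against 134, 141 and 130 FPKM. In GDF15, TRIB3 and DDIT4 the lowest nc library was above the highest shSYK library.

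The amino acid branch moved less evenly. The transporters SLC7A5 (-1.29) and SLC3A2 (-1.06) and the serine synthesis enzyme PHGDH (-0.998) fell, ASNS, the asparagine synthetase, fell by 0.50, and PSAT1 (-0.01) and PSPH (0.03) had nearly equal levels. ATF4 itself was at 132, 134 and 124 FPKM in nc and 109, 117 and 96.3 FPKM in shSYK cells. Its fall of 0.28 on the log2 scale (adjusted p = 0.0300) was 0.08 with the trends removed (adjusted p = 0.50). Among the 20 aminoacyl tRNA synthetases, 5 fell and 5 rose (25.0% each), near the shares of all genes (21.6% lower and 23.1% higher). AARS, WARS, SARS and FARSA were the largest falls (-1.24, -0.57, -0.56 and -0.46), and RARS, DARS, FARSB and EPRS were the largest rises (0.70, 0.56, 0.51 and 0.46). Of the 2 listed genes that rose, TXNIP (chr1:145992435-145996600), an inhibitor of thioredoxin and of glucose uptake, was at 4.12, 5.13 and 6.43 FPKM in nc cells and at 43, 33.9 and 47.1 FPKM in shSYK cells. It was 7.91-fold higher (log2 fold change 2.77 ± 0.16 SE, adjusted p = 6.71e-05), and the other, ATF5, rose by 0.72. The element TGATGNAA that ATF4 binds with C/EBP factors was in 5 of 32 promoters of the list (ASNS, ATF3, CHAC1, SLC3A2 and SLC7A1). It was in 1.57% of the promoters of all genes called lower and in 1.32% of those called higher.

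Other stress genes split. HMOX1, the haem oxygenase induced by oxidants, was at 70.2, 107 and 55.1 FPKM in nc cells and at 6.85, 6.79 and 8.22 FPKM in shSYK cells, 10.6-fold lower (log2 fold change -3.19 ± 0.22 SE, adjusted p = 0.000101). The 27 tested targets of NRF2, a list that holds HMOX1 among others, had 10 rises and 4 falls. HSPA6, a strictly inducible heat shock protein, fell from 10.8, 15.7 and 10.2 FPKM to 0.284, 0.252 and 0.558 FPKM. It resembles HSPA7 and overlaps AL590385.2, so its reads are uncertain. With under 1 FPKM in shSYK cells, HSPA6 passed the filter only through the nc libraries. The heat shock list of 21 tested genes had 9 rises and 4 falls. Its 4 falls were HSPA1A (-1.75), HSPA1B (-1.66), DNAJB1 (-0.92) and HSPB1 (-0.50, not called with the trends removed), and its largest rises were HSP90AA1 (0.95), DNAJA1 (0.67), HSPA8 (0.63) and HSPH1 (0.62). HSPA1A and HSPA1B are nearly identical and share reads. In 10 tested genes of the thioredoxin and arrestin family, TXN rose by 0.71 beside TXNIP and ARRB2 (-1.38) and ARRB1 (-0.86) were the largest of 4 falls.

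Mitochondrially encoded mRNAs were lower in shSYK cells. All 13 were tested, 12 fell and none rose, with a relative median of -0.51, and all 13 fell with the trends removed (relative median -0.58). MT-CYB was at 742, 793 and 752 FPKM in nc cells and at 397, 402 and 406 FPKM in shSYK cells (log2 fold change -0.92 ± 0.06 SE, adjusted p = 7.51e-05). MT-CO3 (-0.85), MT-ND4 (-0.72) and MT-ND3 (-0.71) followed, and MT-ND2 did not pass (-0.11, adjusted p = 0.298). The 2 ribosomal RNAs of the same genome, looked at after the list had been counted, went the other way. MT-RNR1 was at 234, 253 and 240 FPKM in nc cells and at 517, 559 and 592 FPKM in shSYK cells (log2 fold change 1.19 ± 0.07 SE, adjusted p = 6.86e-05). MT-RNR2 was at 1169, 1445 and 1263 FPKM against 1649, 1698 and 1825 FPKM (0.42 ± 0.09 SE, adjusted p = 0.00804). How the RNA was selected or depleted of ribosomal RNA is not stated in the sources used here, and its part in this difference was not tested. The mitochondrial tRNA gene MT-TD, 68 bases long and with as few as 2 reads in a library, was among the 10 largest falls (-3.42). The nuclear genes of the respiratory chain did not share the fall, with 21 rises and 10 falls among 74 tested. The mitochondrial ribosomal proteins had 22 rises and 7 falls among 77, with a relative median of 0.13. In these bulk samples, fewer cells of a kind and less RNA per cell cannot be told apart.

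Genes of mitosis were higher in shSYK cells. Of 34 tested, 19 (55.9%) rose and none fell, with a relative median of 0.47. After the trends were removed, 24 rose and none fell, but the relative median was 0.27, and the genes of this list are poor in GC (median 44.8%). CENPF, a kinetochore protein, was at 2.62, 3.77 and 3.00 FPKM in nc cells and at 6.92, 7.11 and 7.58 FPKM in shSYK cells (log2 fold change 0.998 ± 0.108 SE, adjusted p = 0.000596). The cytokinesis genes ECT2 (0.97) and ANLN (0.95) and the spindle motor KIF11 (0.90) also rose to about 2-fold levels, and with the trends removed the changes of the 4 genes were 0.55 to 0.62. In each of the 4 the highest nc library was below the lowest shSYK library. The DNA replication list showed no such shift, with 13 rises and 6 falls among 38 and a relative median of 0.08. Among the 28 cyclin and cyclin-dependent kinase genes, 13 rose and 4 fell. CCNB1 (0.54) and CCNA2 (0.49) were among the rises and CCNG2 (-0.86), CDK18 (-0.66) and CDK4 (-0.30, not called with the trends removed) among the falls. In the list of 15 cyclins and inhibitors, RB1 (0.67) and RBL1 (0.62) rose, and the inhibitors CDKN1B (-0.70) and CDKN2A (-0.64) fell. The 18 p53 targets were split, with 4 rises led by FAS (0.70) and RRM2B (0.63) and 8 falls led by GDF15, BBC3 (-1.48), SESN2 (-1.18) and FDXR (-0.94), of which GDF15 and SESN2 are also ATF4 targets. Of 13 apoptosis genes, the BH3-only genes BBC3, BMF (-1.07) and BAD (-0.63) fell together with BAX (-0.30), and MCL1 rose by 0.34. BAX did not pass with the trends removed (adjusted p = 0.946).

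Genes of protein synthesis rose in part. Of 43 tested translation initiation factors, 19 rose and 1, EIF1 (-0.37), fell, with relative medians of 0.17 and, with the trends removed, 0.19. EIF5B, which joins the ribosomal subunits, rose most (1.26), before EIF1AX (1.02), EIF3J (0.81) and EIF2S3 (0.79). The 83 cytosolic ribosomal proteins had 13 rises and 10 falls, below the shares of all genes in both directions. With the trends removed they had 25 rises and 9 falls, and the share of rises was then above that of all genes. RNA helicases had 20 rises and 1 fall among 50, and 20 and 5 with the trends removed. Splicing factors had 26 rises and 7 falls among 63, and 21 and 12 with the trends removed. Proteasome subunits had 10 rises and 1 fall among 36, a share of rises near that of all genes.

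Some genes of squamous and antimicrobial differentiation rose, although SOX2 was the only squamous marker checked that was above 0.132 FPKM. In the squamous list 13 of 39 genes passed the FPKM filter, of which 7 rose and 1, SOX2 (-0.47), fell. SPRR1A and SPRR1B were under 1 FPKM in nc cells and passed the filter only through the shSYK libraries, so their place among the rises was set by the filter. SOX2 did not pass with the trends removed (adjusted p = 0.0799). SPRR1B, a precursor of the cornified envelope, had the largest rise by the naming rule. It was at 0, 0.255 and 0.82 FPKM in nc cells and at 8.49, 9.79 and 16.4 FPKM in shSYK cells (log2 fold change 3.20 ± 0.28 SE, adjusted p = 0.000264). S100A8 (chr1:153390032-153391188), a subunit of the antimicrobial protein calprotectin, was at 1.30, 1.18 and 1.52 FPKM against 11.4, 11.6 and 13.3 FPKM (2.49 ± 0.09 SE, adjusted p = 1.28e-05). Its partner S100A9 was at 128, 108 and 125 FPKM against 325, 330 and 346 FPKM (1.47 ± 0.08 SE, adjusted p = 5.44e-05). In all 3 genes the groups were far apart. Of 11 S100 genes tested, 5 rose and none fell, S100A11 (0.80) and S100A6 (0.48) among them, and the relative median was 0.32 and, with the trends removed, 0.55. The defensin gene DEFB4A was at 20.8, 20 and 23.9 FPKM against 95.4, 101.2 and 80.5 FPKM, and its near-identical copy DEFB4B makes the assignment of its reads uncertain. Serpins, inhibitors of proteases, had 8 rises and 1 fall (SERPINA5, -1.24) among 13. SERPINB4, SERPINB7 and SERPINB9 were under 1 FPKM in nc cells and are counted among the 8 only because the filter took them in through the shSYK libraries. SERPINB4 was at 0.0721, 0 and 0.0421 FPKM in nc cells and at 3.44, 2.67 and 2.88 FPKM in shSYK cells, SERPINB7 rose by 1.61 and SERPINB5, maspin, by 0.92. MMP7, a protease that activates defensins, rose from 2.97, 3.54 and 3.39 FPKM to 14.2, 13.8 and 15.4 FPKM (1.85 ± 0.08 SE, adjusted p = 2.43e-05). Other genes of the 10 largest rises were VNN1, a pantetheinase (2.27), AKR1B10, an aldo-keto reductase that resembles AKR1B15 (1.93), and SNORD99, a small RNA within SNHG12 on the same strand with as few as 1 read in a library (1.76).

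Several MHC class II genes, which present peptides to helper T cells, were higher in shSYK cells. The list of 13 was written after HLA-DRA and HLA-DRB1 had been seen among the largest rises and holds both, so its 8 rises among 10 genes tested describe these genes and test nothing. HLA-DPA1, HLA-DPB1 and HLA-DMB were under 1 FPKM in nc cells and passed the filter through the shSYK libraries. HLA-DRA (chr6:32439842-32445046) was at 36.4, 33.0 and 32.4 FPKM in nc cells and at 133, 140 and 124 FPKM in shSYK cells (log2 fold change 1.93 ± 0.08 SE, adjusted p = 2.00e-05). HLA-DRB1 was at 25.9, 25.4 and 30.4 FPKM against 97.5, 91.3 and 87.9 FPKM, and reads of HLA-DRB1 and HLA-DRB5 are hard to separate. HLA-DPA1 (2.05) and HLA-DPB1 (1.86) rose from means below 1 FPKM to 6.14 and 5.72 FPKM. CD74, the invariant chain, rose by 0.30, and CIITA, the master regulator of these genes, was at 3.76, 3.44 and 3.72 FPKM against 4.41, 4.598 and 4 FPKM (0.20, adjusted p = 0.0684). CIITA passed after trend removal at 0.25 (adjusted p = 0.0166). Class I presentation behaved differently. Of 21 genes of antigen presentation 4 rose and 7 fell, with ERAP2 (0.86) and CD274, which codes for PD-L1 (0.72), among the rises and CALR, PDIA3 (-0.61) and PSMB9 (-0.53) among the falls. CALR and PDIA3 are also members of the unfolded protein response. Its relative median of -0.24 was 0.02 with the trends removed. Interferon genes had 11 rises and 3 falls among 29 (relative medians 0.21 and 0.17). IFITM1 (1.64), SAMD9 (1.12), IFI44L (0.80) and IFI44 (0.79) rose and OASL (-0.80), IRF1 (-0.56) and IFI6 (-0.48) fell, of which IFI44L and IFI6 did not pass with the trends removed (adjusted p = 0.0796 and 0.0800). IFITM1 was under 1 FPKM in nc cells and is counted among the 11 only because the filter took it in through the shSYK libraries. GBP3 (1.03), GBP2 (0.46) and GBP1 (0.30), the 3 members of their GTPase family tested, rose, and GBP1 did not pass with the trends removed (adjusted p = 0.308). Inflammation genes had 9 rises, led by IL18 (0.92) and CCL2 (0.92), and 9 falls, led by IL1B (-1.33), CXCL2 (-1.09) and TNFAIP2 (-0.96), among 29.

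**Figure D4:**
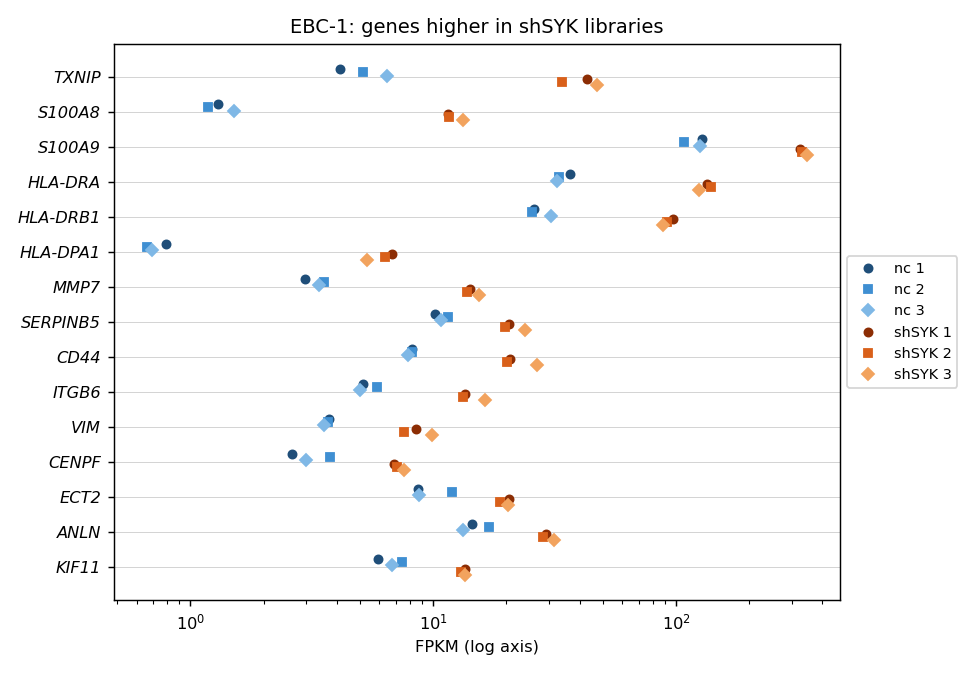
FPKM (log axis) of 15 genes called higher in shSYK cells, in each EBC-1 library, with blue symbols for nc and orange symbols for shSYK replicates 1 to 3. TXNIP lies at 4.12 to 6.43 in nc and 33.9 to 47.1 in shSYK libraries, HLA-DRA at 32.4 to 36.4 and 124 to 140, and the mitosis genes CENPF, ECT2, ANLN and KIF11 are separated by smaller gaps.

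Epithelial and mesenchymal genes changed in both directions. Among 36 tested epithelial markers 17 fell and 4 rose (relative median -0.25), but 11 fell and 8 rose with the trends removed (relative median -0.06). CDH1, E-cadherin, was at 126, 136 and 122 FPKM in nc cells and 106, 105 and 101.6 FPKM in shSYK cells (-0.30 ± 0.07 SE, adjusted p = 0.00913), and EPCAM did not pass (0.23, adjusted p = 0.0632). With equal library sums these calls changed places, CDH1 at -0.17 (adjusted p = 0.0864) and EPCAM at 0.36 (adjusted p = 0.0185). KRT7 (-1.34), ELF3 (-1.22), CLDN3 (-0.76) and JUP (-0.63) were the largest falls, and ITGB6 (1.27), DSP (0.68), MAL2 (0.53) and PKP3 (0.50) the rises. KRT81, a hair keratin, fell from 22.2, 23.9 and 26.8 FPKM to 1.56, 1.68 and 1.52 FPKM (-3.28 ± 0.08 SE, adjusted p = 6.39e-06), and it overlaps KRT86 on the opposite strand, which fell by 1.09. KRT86 was under 1 FPKM in shSYK cells and passed the filter only through the nc libraries. Of 9 keratins tested, 6 fell and none rose, but 4 fell and 3 rose with the trends removed. Among 16 mesenchymal markers 5 rose and 5 fell, and 5 and 3 with the trends removed. CD44 (1.37), VIM (1.04), SNAI2 (0.52) and CDH2 (0.51) rose, and CTGF (-1.05), TGFB2 (-0.63), AXL (-0.54) and SNAI1 (-0.42) fell. VIM, vimentin, was at 3.71, 3.70 and 3.53 FPKM against 8.45, 7.56 and 9.84 FPKM. SNAI1 and SNAI2 did not pass with the trends removed (adjusted p = 0.166 and 0.0627). FN1 (0.09, adjusted p = 0.508) and FOSL1 (-0.13, adjusted p = 0.406) did not pass, and both turned sign with the trends removed. FOSL1 was at 606, 446 and 586 FPKM in nc and 511, 497 and 480 FPKM in shSYK cells, overlapping between groups. SP1 (-0.14, adjusted p = 0.194) was called lower only with the trends removed (-0.30, adjusted p = 0.00404). MUC1, RAPGEF5, ZEB1 and SMAD2 were under the FPKM filter.

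Genes of the matrix and of the pathways that act on it changed in both directions. Of 19 tested genes of the extracellular matrix of mesenchymal signatures 10 fell and 4 rose, with COL6A2 (-1.23), LTBP2 (-1.15), PCOLCE (-1.06) and LMCD1 (-0.97) as the largest falls. THBD, thrombomodulin, was at 264, 228 and 226.5 FPKM in nc cells and at 98.5, 99.2 and 87.7 FPKM in shSYK cells (-1.32 ± 0.09 SE, adjusted p = 8.36e-05). Of 21 matrix proteases and their regulators 9 rose and 5 fell, and 8 and 6 did so with the trends removed. Among them MMP9 (-1.69), THBD, PLAT (-0.92) and PLAU (-0.64) fell while MMP7, SERPINB5, F3 (0.89) and TFPI2 (0.79) rose. The TGF-beta list had 13 falls and 7 rises among 30, with relative medians of -0.16 and -0.25. LTBP3, which holds latent TGF-beta in the matrix, was at 126, 106 and 122 FPKM against 25.1, 28.6 and 17.3 FPKM (-2.30 ± 0.17 SE, adjusted p = 0.000149). SMAD3, a transducer of the pathway, was at 164, 156 and 160 FPKM against 76.0, 77.1 and 69.1 FPKM (-1.10 ± 0.07 SE, adjusted p = 6.92e-05). TGIF1 fell by 1.07, and BMP4 (0.90), ID3 (0.74), ENG (0.54) and TGFBR1 (0.48, not called with the trends removed) rose. TGFB1 fell by 0.34 (adjusted p = 0.0382) and by 0.05 with the trends removed (adjusted p = 0.427). Of 19 YAP targets 7 fell, AJUBA (-1.30), CTGF, GADD45A (-0.92) and CYR61 (-0.87) leading, and 3 rose, F3, NT5E (0.45) and ASAP1 (0.45). In the Notch list of 17, NOTCH3 (-1.16) and DLL3 (-0.65) fell and RBPJ (0.73) and NOTCH1 (0.37) rose. In the Wnt list of 18, FZD2 (-1.31), SFRP1 (-1.18) and FZD7 (-0.97) fell and LGR4 (0.94) and FZD6 (0.65) rose. MMP9, COL6A2 and DLL3 had means under 1 FPKM in shSYK cells, and TGFBR1 in nc cells. Each of these passed the filter only through its higher group, so the filter fixed its direction.

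Among cell surface and cytoskeleton families, 5 of 11 integrins rose (ITGB6 and ITGA6, 0.54, first) and 4 fell (ITGA7, -1.32, and ITGB2, -0.74, first). Laminins (3 rises and 4 falls among 8), collagens (4 and 4 among 14), desmosome and adherens genes (6 and 4 among 17), septins (4 and 3 among 8), and semaphorins and plexins (5 and 7 among 15) were split. In these families, LAMA4 (0.59) and LAMA5 (-0.54), COL4A6 (0.93) and COL6A2 (-1.23), NECTIN1 (1.08) and JUP (-0.63), SEPTIN7 (0.80) and SEPTIN5 (-1.85), and SEMA3A (0.91) and SEMA6B (-1.83) stood at the ends. The collagens, with 28.6% called in each direction, were not far from the shares of all genes (23.1% higher and 21.6% lower). COL4A6 was under 1 FPKM in nc cells, and COL6A2, SEPTIN5 and ITGA7 were under it in shSYK cells. Each passed the filter only through its higher group. Of 39 actin and contractility genes 8 rose, ROCK1 (0.72) and DIAPH3 (0.60) first, and 13 fell, CNN2 (-0.81) and FLNA (-0.59) first. The change of ROCK2 (0.52) was 0.04 with the trends removed. Of 8 claudins, CLDN12 (0.73) rose and CLDN3, CLDN7 (-0.45) and CLDN4 (-0.43) fell, while 3 rose and 3 fell with the trends removed and CLDN7 did not pass (adjusted p = 0.246). Of 16 tetraspanins 1, TSPAN13 (0.50), rose and 4 fell, TSPAN6 (-0.67) most. Both mucins tested fell, MUC4 by 1.15 and MUC20 by 0.31, and MUC20 did not pass with the trends removed (adjusted p = 0.332). PCDH7 (0.94) and PCDHGB5 (0.44) rose and PCDH1 (-0.31) fell among 4 protocadherins, and PCDH1 did not pass with the trends removed (adjusted p = 0.245). PCDH7 was under 1 FPKM in nc cells and passed the filter only through the shSYK libraries. Of 40 exchange factors and GTPase-activating proteins for small GTPases 7 rose, ARHGAP11A (0.80) and ARHGAP18 (0.74) first, and 14 fell, ARHGEF40 (-0.69) and ARHGAP33 (-0.68) first.

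Signalling genes near SYK and MET were split too. Of 11 tested genes of tyrosine kinase signalling, PAG1 (0.76), YES1 (0.75), LYN (0.62) and VAV2 (0.58) were the largest of 6 rises, and SRC (-1.09), SYK, LCK (-0.73) and PLCG1 (-0.31) were the 4 falls. The relative median of 0.28 was 0.04 with the trends removed. Of 25 tested ERK feedback genes 6 rose, EGR1 (1.24), KLF10 (0.60), DUSP6 (0.49) and DUSP7 (0.34) the largest. Another 5 fell, with AREG (-1.11), a ligand of EGFR, first. These counts were near the shares of all genes (23.1% higher and 21.6% lower), and the relative median was 0.05. With the trends removed, 9 of these genes rose and 7 fell. AP-1 and related genes had 6 falls and no rise among 14, and 7 falls and 2 rises with the trends removed. ATF3 (-0.96), JDP2 (-0.94), JUNB (-0.72) and FOSL2 (-0.65) fell most, and the first 2 of these are also in the ATF4 list. Of 4 lung adenocarcinoma markers tested, the transcription factors FOXA2 (-1.22) and FOXA1 (-0.59) and the transporter ABCA3 (-0.70) fell. Among 7 SOX genes, SOX12 (-1.06) and SOX4 (-0.57) fell beside SOX2. Of 9 HOX genes 1, HOXA3 (-1.005), fell, a smaller share than that of all genes.

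In lipid metabolism, 9 of 25 cholesterol synthesis genes fell and 1, SC5D (0.64), rose, with a relative median of -0.22 that moved to -0.11 without shSYK replicate 3 and to -0.31 without nc replicate 2. After trend removal 10 fell and 3 rose. MVD (-0.92), STARD4 (-0.75), SREBF2 (-0.71) and HSD17B7 (-0.70) fell most. Fatty acid genes had 6 rises, ELOVL5 (0.61) first, and 7 falls, FADS2 (-1.10) and SCD5 (-0.82) first, among 20. Of 17 genes of drug efflux and metabolism 8 fell and 3 rose. ALDH1A3, which makes retinoic acid, was at 84.9, 94.4 and 74.8 FPKM in nc cells and at 14.8, 13.1 and 16.1 FPKM in shSYK cells (-2.45 ± 0.11 SE, adjusted p = 2.43e-05). CYP1A1, a target of the aryl hydrocarbon receptor, was at 28.6, 30.4 and 23.3 FPKM against 4.42, 4.21 and 5.22 FPKM (-2.33 ± 0.11 SE, adjusted p = 3.67e-05). AKR1C1 (0.69), AKR1C2 (0.37) and AKR1C3 (0.28) were the rises, and they resemble each other closely. Hypoxia genes had 6 rises, among them ERO1A and LOX (0.44), and 6 falls, among them ANGPTL4 (-0.64) and NDRG1 (-0.51), among 19, and only 1 rise and 4 falls with the trends removed, when LOX (adjusted p = 0.0926) and ANGPTL4 (adjusted p = 0.169) did not pass. Glycolysis genes had 3 rises and 8 falls among 22.

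Transport families had rises and falls. COPI, COPII and SEC genes had 9 rises, COPB1 (0.85) and SEC62 (0.72) first, and 4 falls, SEC24D (-0.47) and SEC23B (-0.40) first, among 23. V-ATPase subunits had 7 rises, led by ATP6V0C (0.67), and 1 fall among 15. RAB GTPases had 10 rises, led by RAB27A (0.90) and RAB18 (0.82), and 10 falls, led by RAB15 (-0.91), among 45, which are the shares of all genes (23.1% higher and 21.6% lower) to within a few percentage points. Lysosome and autophagy genes had 11 rises, CTSC (0.89) first, and 14 falls, WIPI1 (-1.35), GAA (-1.30) and SQSTM1 (-0.96) among them, of 36. Of 173 solute carriers 38 rose, SLC25A32 (1.10) first, and 45 fell, SLC22A31 (-1.90) and SLC28A1 (-1.45) first, also near the shares of all genes. Of 21 ABC transporters 6 rose, ABCA10 (1.39) first, and 8 fell, ABCA2 (-0.79) first. ABCA10 was under 1 FPKM in nc cells and passed the filter only through the shSYK libraries. SLC22A31, SLC28A1 and WIPI1 were under 1 FPKM in shSYK cells and passed only through the nc libraries. IGFBP3 (-0.66) and IGFBP6 (-0.60) were the falls among 4 IGF binding proteins. Of 22 core and linker histone genes, 9 fell, HIST1H1E (-2.01) and HIST3H2A (-0.94) first, and 1, HIST1H2BC (0.61), rose, and 6 fell and 2 rose with the trends removed. HIST1H1E was under 1 FPKM in shSYK cells and passed the filter only through the nc libraries. Among 22 nuclear-retained and small RNA host transcripts SNHG12 (0.81), MALAT1 (0.78) and SNHG3 (0.74) rose and LINC00511 (-0.82) fell, and MALAT1 did not pass with the trends removed. Of 238 zinc finger genes 36 rose and 62 fell (relative median -0.07), and the 27 lists and families not described by members had relative medians between -0.14 and 0.14. The 1 endothelial marker tested, ESAM, fell by 0.70, and the fibroblast list held 1 tested gene, which was not called. The lincRNA AC254633.1, at 70.6, 74.8 and 75.0 FPKM in nc cells and 5.68, 3.96 and 4.90 FPKM in shSYK cells, had the next largest fall after DDIT3 (-3.68 ± 0.11 SE, adjusted p = 6.39e-06). AC012181.3 (-2.92) lies within HERPUD1 on the same strand, and their reads cannot be told apart.

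Fold changes by chromosome followed GC content. The relative median ran from -0.23 on chromosome 19 to 0.18 on chromosome 4, and over the 23 chromosomes its Spearman correlation with the median GC content of the genes tested was -0.86. After trend removal it lay between -0.09 (chromosome 21) and 0.11 (chromosome 11). MET (chr7:116672390-116798386), the amplified gene, was at 436, 531 and 438 FPKM in nc cells and at 588, 597 and 632 FPKM in shSYK cells (log2 fold change 0.38 ± 0.09 SE, adjusted p = 0.0124). The groups did not overlap, and the rise was 0.19 with the trends removed (adjusted p = 0.0189). For scale, the means of MET in the control cells of PC-9 and HCC827 were 10.3 and 83.2 FPKM. Of 22 genes tested within 5 Mb of its start, 12 rose and 4 fell, with a relative median of 0.30, and 8 rose and 4 fell with the trends removed, with a relative median of 0.07. Close to MET, CAPZA2 (0.70), ST7 (0.46), LINC01510 (0.89) and CAV1 (0.18) rose and TES (-0.33) and AC002066.1 (-0.38) fell, and CAV1 did not pass with the trends removed (adjusted p = 0.0888). LINC01510 had a mean under 1 FPKM in nc cells and passed the filter only through the shSYK libraries.

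**Figure D5:**
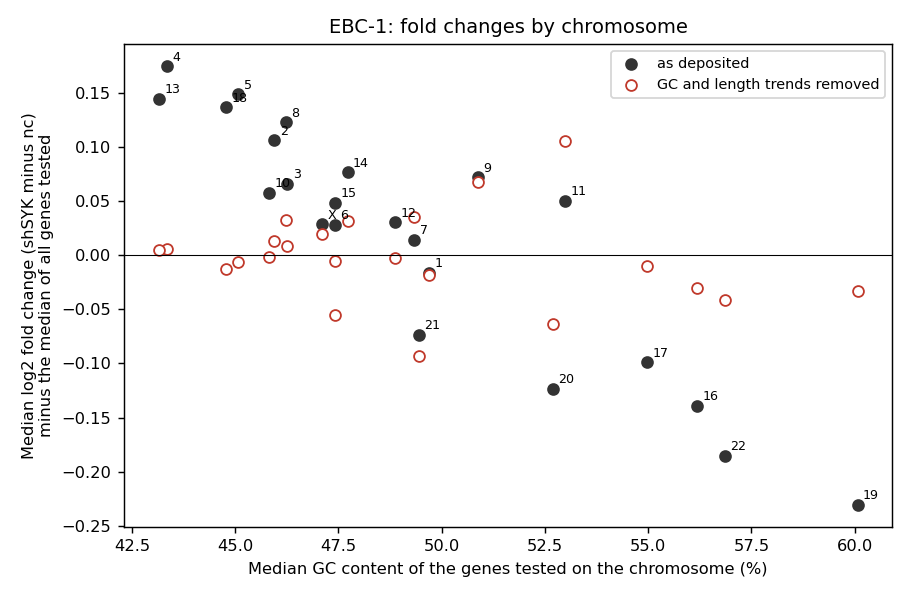
Median log2 fold change (shSYK minus nc) of the genes tested on each chromosome minus the median of all genes tested (y axis), against the median GC content of those genes (x axis, %). Black labelled points are as deposited and fall from 0.18 on chromosome 4 to -0.23 on chromosome 19, and open red points, with GC and length trends removed, lie between -0.09 and 0.11.

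Motifs in promoters were counted on either strand in all 8927 matched promoters. The Sp1 box GGGCGG was in 72.1% of them, in 69.0% of those of genes called higher and in 77.3% of those called lower. The interferon element GAAANNGAA was in 6.25%, 7.33% and 4.95%. The AP-1 element TGANTCA (4.45%, 4.59% and 4.29%), the TEAD element GGAATG (10.5%, 11.3% and 11.01%) and the sterol element TCACNCCAC (0.986%, 0.971% and 1.01%) had nearly the same share in each. Among the 66 matched genes that rose at least 2-fold, 13.6% had the AP-1 element, 15.2% the interferon element and 45.5% the Sp1 box, and among the 179 that fell at least 2-fold the shares were 4.47%, 3.91% and 78.8%. Base composition sets how often such short strings occur, and its part in these shares was not tested.

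The response was compared with that of the other 2 lines in a fit of all 18 libraries. The EBC-1 effect differed from the mean effect of PC-9 and HCC827 in 27 of 35 named genes tested, and in 25.0% of all genes. The 35 genes include those chosen for their large change in EBC-1, so their share is not a result about them. The relative median of the unfolded protein response was -0.86 in EBC-1 against 0.08 in PC-9 and -0.10 in HCC827, and that of the ATF4 response was -0.70, 0.10 and -0.04. DDIT3 changed by -3.88 in EBC-1 against 0.53 in PC-9 and -0.05 in HCC827, and TXNIP by 2.77, 0.10 and -0.21. The mitosis genes had relative medians of 0.47, 0.19 and 0.22. All these relative medians are on the deposited values. With the trends removed, that of the mitosis genes in EBC-1 was 0.27, and no such value is given for the other 2 lines. SYK itself fell less in EBC-1 (-0.85) than in PC-9 (-1.29) and HCC827 (-1.34), which differed by 0.46 ± 0.13 SE (adjusted p = 0.0160).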

How the data were processed

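RNA-seq of EBC-1, PC-9 and HCC827 cells was deposited by the authors as FPKM per gene and library. Per the study's methods and the labels, RNA was taken with TRIzol and sequenced on an Illumina HiSeq by Novogene. CASAVA and HISAT2, with no version, and more than 1 genome build are named in the submitters' processing notes, and gene positions in the tables match GRCh38. The counting program and the annotation are not given in the sources used here. Every FPKM came from a whole number of reads, which were recovered and used for depth and 1 alternative, and such read numbers cover counting error only. Groups and replicate numbers came from the labels. The check of replicates found no library to be a copy of another. No other columns of per-sample values were in the tables.

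Genes with a mean of at least 1 FPKM over the 6 EBC-1 libraries were tested on log2(FPKM + 1) in R 4.3.3 with limma 3.58.1 (empirical Bayes with a variance trend, Benjamini-Hochberg adjustment over all genes), where fold changes of low genes are understated. Tested on simulated EBC-1 libraries of 12366 genes, 85.5% of 200 genes changed 2-fold were recovered, with 6 false calls. The simulated reads were drawn with the same spread setting for every gene and with no GC or length trend between the groups. These figures therefore do not give the error rate of the real comparison, where the GC trend ran with the groups. GC content came from GENCODE 44 transcripts, and trends of each library's deviation on log2 length and then GC content were removed by lowess (span 0.3). The interaction was fitted over all 18 libraries. Tables and figures were made in Python 3.11.15 with pandas 2.3.3, scipy 1.17.1 and matplotlib 3.10.9. Promoters came from RefSeq.

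Some genes are not reported here. Alternatives were pseudocount, filters, scaling, variance trend, trend removal, limma-voom, a replicate block and leaving out each library. Members and lists were chosen with earlier results of these data known. Named are genes the study works on, the 10 largest rises and falls among called genes with a mean of at least 5 FPKM and no overlap, and up to 4 rises and 4 falls per list with a relative median of at least 0.15 in size or with at least 20% called in each direction. Promoter genes, heat shock genes, MHC class II genes, other genes of the stress lists, mitochondrial rRNAs and genes near MET were named after their values were seen.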

Additional observations from a re-analysis of the deposited data

Results flagged for a closer look

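The EBC-1 effect minus the mean effect of PC-9 and HCC827, a difference of log2 fold changes tested with limma over 18 libraries, passed an adjusted p of 0.05 for 27 of the 35 named genes tested. It was negative for DDIT3 (-4.12), AC012181.3 (-3.07), DERL3 (-3.05), HSPA6 (-3.04), KRT81 (-2.80), HMOX1 (-2.75), BHLHA15 (-2.72), AC254633.1 (-2.50), MIR616 (-2.33), CTGF (-1.63), THBD (-1.43), SMAD3 (-0.96), VIM (-0.73), SNAI1 (-0.63) and FN1 (-0.33). It was positive for SYK (0.46), CDH2 (0.50), MET (0.61), HLA-DRA (1.89), AKR1B10 (2.01), HLA-DRB1 (2.06), MMP7 (2.16), VNN1 (2.51), TXNIP (2.82), SPRR1B (3.01), DEFB4A (3.69) and S100A8 (3.99). A positive difference for SYK means a weaker knockdown in EBC-1, and the negative difference for VIM means a smaller rise in EBC-1 (1.04) than in HCC827 (2.53), PC-9 being at 1.02. In CTGF the effect was -1.05 in EBC-1 against -0.18 in PC-9 and 1.34 in HCC827, and in S100A8 it was 2.49, -0.80 and -2.20. DEFB4A had no read in PC-9 and fell by 3.29 in HCC827. Groups of 3 libraries were not tested for single outlying libraries.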

How the results depend on the processing

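The counts of 2876 higher and 2686 lower genes stayed within 1.5 times under every alternative except a filter of at least 5 FPKM, which tests fewer genes (1736 higher), and the 2-fold requirement (124 higher and 285 lower). Leaving out 1 library gave 1959 to 3259 higher and 1802 to 3050 lower genes, with nc replicate 1 at the low end and nc replicate 2 at the high end of both. Leaving out nc replicate 2 and shSYK replicate 3 together, chosen after the data were seen because their reads differed most from those of their own groups, gave 3215 and 3220. SYK kept its direction and call under all 16 alternatives (-0.92 to -0.73, adjusted p 1.53e-05 to 0.00290). The count of 27 genes that differed from the other lines was 26 to 28.

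With a replicate block, 2241 genes were higher and 2085 lower, and SYK stayed at -0.85. The deviations of same-numbered libraries from their group means had correlations of 0.03, -0.17 and -0.22. Deviations from a mean of 3 libraries are tied to each other. These correlations therefore cannot show whether same-numbered libraries shared a culture or preparation.

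Signs turned with the GC and length trends removed for FN1 (-0.030), FOSL1 (0.19), ACSL4 (-0.15), PDK1 (-0.029), CDKN1C (0.0082), antigen presentation (0.018), matrix proteases (0.080), and COPI and COPII coat and SEC genes (-0.0091). FOSL1 was also positive with equal library sums (0.0039) and quantile normalization (0.15). Without a filter the relative medians of mesenchymal markers (0.0061), matrix proteases (0.036), integrins (-0.015) and mucins (0.00082) turned, and with at least 5 FPKM those of the Notch pathway (0.022) and protocadherins (-0.29). The cause was not tested. Depth limits the small RNAs and genes with a few reads.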
